A study of Mus musculus with 36 samples.

Results

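The comparison described here is that of Dpt-null with wild-type mice after chronic carbon tetrachloride (CCl4), and it takes in 18 of the 36 liver arrays of the study. Its members are the libraries whose titles place them in the knockout CCl4 group (KO, 9 libraries) or the wild-type CCl4 group (WT, 9 libraries). The labels give all as female C57BL/6 mice of 10 to 12 weeks, the WT animals being littermates of the Dpt-null ones. The CCl4 groups received subcutaneous doses of 0.1 ml per kg, 3 per week over 8 weeks, with the strength of the solution stepped up weekly through 2%, 4%, 5% and 6% to 8%, which was then kept. Tissue was collected 24 hours after dosing ended. The other 18 arrays are of mice given olive oil alone (10 KO and 8 WT libraries), and their values are set beside those after CCl4. The labels call the oil mice female too, yet the mean over 3 Y-linked genes was 6.09 to 6.40 in KO oil libraries 1, 3 and 4 and WT oil libraries 1, 2 and 3, against at most 3.06 in the other oil libraries and 2.34 to 2.80 in every CCl4 library. RNA was read on an Affymetrix mouse exon-level array, and each value below is a log2 RMA signal averaged over the probe sets of a gene, so that a difference of 1 is 2-fold. The labels name the allele as a Dpt null and give no cell type restriction. Where nothing says that numbered libraries came from separate animals, p-values measure only the spread between these libraries.

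Dpt encodes dermatopontin, a small secreted matrix protein that binds decorin, fibronectin and TGF-beta and speeds the assembly of collagen fibrils. CCl4 is turned into a reactive radical by Cyp2e1, the cytochrome P450 of hepatocytes around the central vein, and kills those cells. With repeated doses, stellate cells become collagen-producing myofibroblasts and monocyte-derived macrophages gather along the scars, which is why the model is used for liver fibrosis.

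Some libraries stood apart or went against their labels. In the library labelled WT CCl4 1, Dpt read 3.18, inside the KO range, and in the library labelled KO oil 10 it read 7.40, above every WT oil library. Treatment readings went against these labels too. Gpnmb, a gene of scar-associated macrophages, read 9.15 in the library labelled KO oil 10, against 3.29 to 3.99 in the other KO oil libraries, and Slco1a1, a hepatocyte transporter gene, read 2.51 there, against 7.60 to 9.61. In the library labelled WT CCl4 1, Slco1a1 read 7.90, against 2.10 to 3.47 in the other WT CCl4 libraries, and Gpnmb read 6.64, against 7.76 to 9.22. Genes near Dpt on its chromosome did not all read alike in the library labelled KO oil 10. Gas5 read 6.41 there, against 4.95 to 5.71 in the other KO and 6.06 to 6.80 in the WT oil libraries. In the same order, Ifi202b read 4.35, against 2.94 to 4.65 and 1.93 to 2.83. Dusp23 read 5.00, against 4.28 to 5.29 and 5.48 to 5.99. Whether the libraries labelled WT CCl4 1 and KO oil 10 were exchanged or mislabelled was not tested. Values over all libraries take them as labelled. Markers of tissues other than liver were high in some CCl4 libraries: the mean over 8 adipocyte markers was 8.97 in KO library 5 and 7.15 in WT library 3, against 4.21 to 4.86 in the other KO libraries, and the mean over 10 skeletal muscle markers was 10.09 in WT library 3 and 8.04 in WT library 8, against 3.62 to 3.98 in all 9 KO libraries. The mean over 13 exocrine pancreas markers reached 11.04 in WT library 4 and 6.60 in WT library 5, against 3.27 to 3.57 in the KO libraries. WT library 9 was also above these KO ranges, with means of 6.07 for adipocyte, 5.57 for muscle and 4.87 for pancreas markers. In WT library 4 the adipocyte mean was 5.34 and the muscle mean 5.42. The periportal hepatocyte markers, by contrast, averaged 5.93 in KO library 5 and 6.18 in WT library 3, against at least 8.60 in the other KO libraries and at least 8.42 in the other WT libraries. Alb, the albumin gene that marks hepatocytes, read 11.37 to 12.47 in KO and 11.54 to 12.54 in WT livers, where the highest value on the arrays was 13.66. In KO library 5 and WT library 3 other liver markers were low as well, with Clec4f, a Kupffer cell lectin gene, at 4.09 in KO library 5 and 4.04 in WT library 3, against at least 7.08 in the other KO and 6.64 in the other WT libraries. Results are therefore given with all libraries and without the library labelled WT CCl4 1, and, where they differ, without further libraries. The part of these markers in the results was not tested.

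The deleted gene read low in every KO liver. Dpt read 3.79, 3.86, 3.61, 3.39, 3.02, 3.59, 3.73, 3.00 and 3.34 in KO libraries 1 to 9, against 3.18 in the library labelled WT CCl4 1 and 7.99, 10.12, 8.86, 8.31, 7.88, 8.37, 8.57 and 7.48 in WT libraries 2 to 9. The groups overlapped in that WT library alone. The difference, KO minus WT, was -4.38 with a standard error (SE) of 0.53, and the adjusted p of the limma fit was 1.9e-05. An exact two-sided permutation test over the 18 libraries, in which 16 of 48620 splits gave a difference as large, had p = 0.000329. Without the library labelled WT CCl4 1 the difference was -4.97, and each of the 5 Dpt probe sets was lower in KO, by -6.37 to -3.87. After oil, Dpt read 3.07 to 7.40 in KO livers, where 7.40 is the library labelled KO oil 10 and the others lay at or below 3.87, against 5.59 to 6.48 in WT livers. Dpt was thus at a higher level in WT livers given CCl4 (mean 8.45 ± 0.80 SD, n = 8 without the library labelled WT CCl4 1) than in WT livers given oil (mean 5.95), a description that was not part of the test here.

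**Figure D1:**
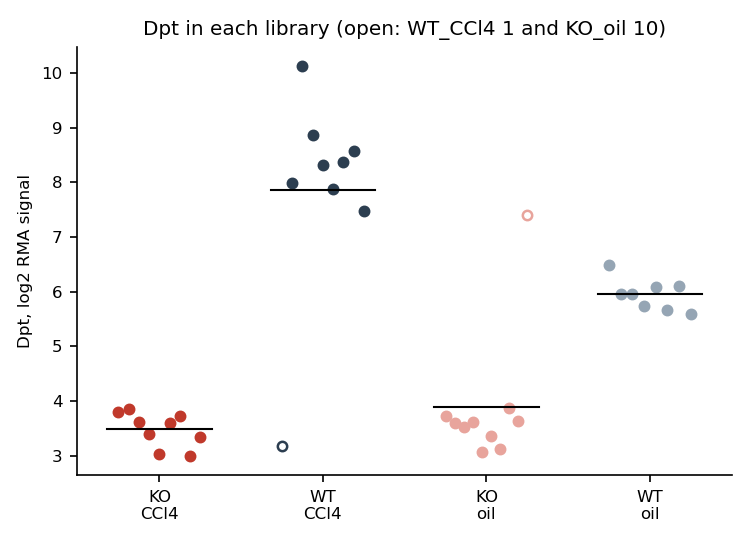
Log2 RMA signal of Dpt (vertical axis) in each of the 36 libraries by group; bars are group means and open circles mark the libraries labelled WT CCl4 1 and KO oil 10. The KO CCl4 libraries lie between 3.00 and 3.86, and all WT CCl4 libraries but the open one lie between 7.48 and 10.12.

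Few other genes passed the test. Of 23102 genes, 13 passed an adjusted p of 0.05 between KO and WT livers after CCl4 (here "called"), which is 0.0563% of the genes tested. Of these, 9 were higher and 4 lower in KO. Ifi202b, Itgax, Fcer1g, Nxpe4, Zbp1, Kcnj10, Rab19, Gsdmd and Tnfrsf14 rose, and Dpt, Gas5, Ifi213 and Dcaf8 fell. Without the library labelled WT CCl4 1, 14 genes were called (0.0606%), 7 higher and 7 lower, and 11 of them were among the 13. Itgax and Rab19 then missed the threshold, both with an adjusted p of 0.0944, while Dusp23 and Ide fell, as did the olfactory receptor gene Olfr1269, which is named here after its values were seen. The count varied with the libraries in the fit. With the library labelled KO oil 10 also left out it was 37 (0.16%), and without KO library 5 and WT library 3 as well it was 98 (0.424%), of which 82 were higher in KO. A fit of the 18 CCl4 arrays alone called 3 genes, Dpt, Gas5 and Ifi202b.

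**Figure D2:**
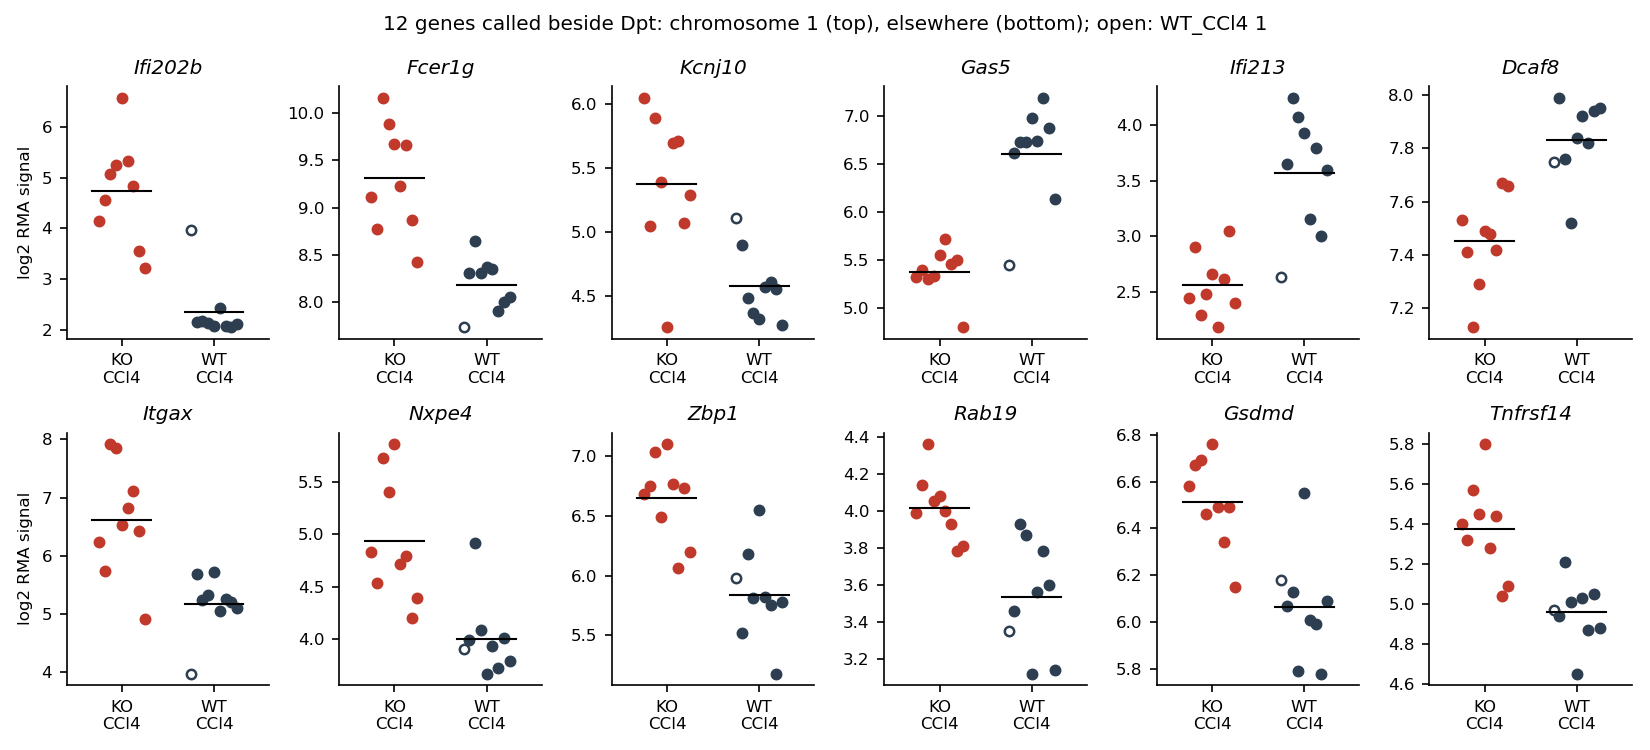
Log2 RMA signal (vertical axis, a scale of its own in each panel) of the 12 genes called beside Dpt in KO and WT livers after CCl4, with a point per library and a bar at each group mean; the open circle is the library labelled WT CCl4 1. In Gas5 and Ifi202b that library is the only WT library that lies in the KO range.

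Ifi202b, an interferon-inducible member of the Ifi200 family that binds DNA in the cytosol, had the largest rise. It read 4.15, 4.56, 5.07, 5.25, 6.57, 5.33, 4.84, 3.56 and 3.23 in KO libraries 1 to 9, against 3.97 in the library labelled WT CCl4 1 and 2.06 to 2.44 in the other 8 WT libraries. Every KO library was above those 8. The difference was 2.36 (SE 0.29, adjusted p = 2e-05), and 2.56 without the library labelled WT CCl4 1. The 8 low WT values lie below those of the deleted Dpt gene in KO livers, so no fold is given. All 8 probe sets of the gene were higher in KO in that setting, by 0.44 to 4.31.

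Gas5, a non-coding RNA gene that hosts small nucleolar RNAs, fell by 1.23 on the log2 scale (SE 0.17, adjusted p = 0.000155). It read 5.32, 5.40, 5.30, 5.33, 5.55, 5.72, 5.46, 5.50 and 4.80 in KO libraries 1 to 9, against 5.45 in the library labelled WT CCl4 1 and 6.61, 6.73, 6.73, 6.98, 6.74, 7.19, 6.87 and 6.13 in WT libraries 2 to 9. The groups were separate apart from that WT library. Of its 14 probe sets 13 were lower and 1 higher in KO without that library, with differences of -6.10 to 0.19, so the fall was not even along the gene. With the brightest probe set of each gene in place of the mean, the Gas5 difference was 0.17 (adjusted p = 0.821).

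The called genes gathered on chromosome 1, where Dpt lies (GRCm38.p6, chr1:164796663-164824274). Within 10 Mb on either side of Dpt, 6 of 237 genes were called (2.53%), against 6 of 22864 elsewhere (0.0262%). These were Gas5 at -3.76 Mb from Dpt, Fcer1g at 6.41 Mb, Dcaf8 at 7.32 Mb, Kcnj10 at 7.52 Mb, Ifi213 at 8.74 Mb and Ifi202b at 9.14 Mb. Without the library labelled WT CCl4 1 there were 7 of 237 (2.95%), Dusp23 at 7.81 Mb being the addition. The window matters: within 5 Mb, 1 of 89 genes was called (1.12%), and widening it to 20 Mb added none, with 6 of 352 (1.70%). Calls were in both directions, with 3 higher and 3 lower in KO among the 6. Fcgr4, which encodes an activating receptor for immunoglobulin G, lies at 6.19 Mb and read 1.35 higher in KO without passing the test (adjusted p = 0.0687).

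**Figure D3:**
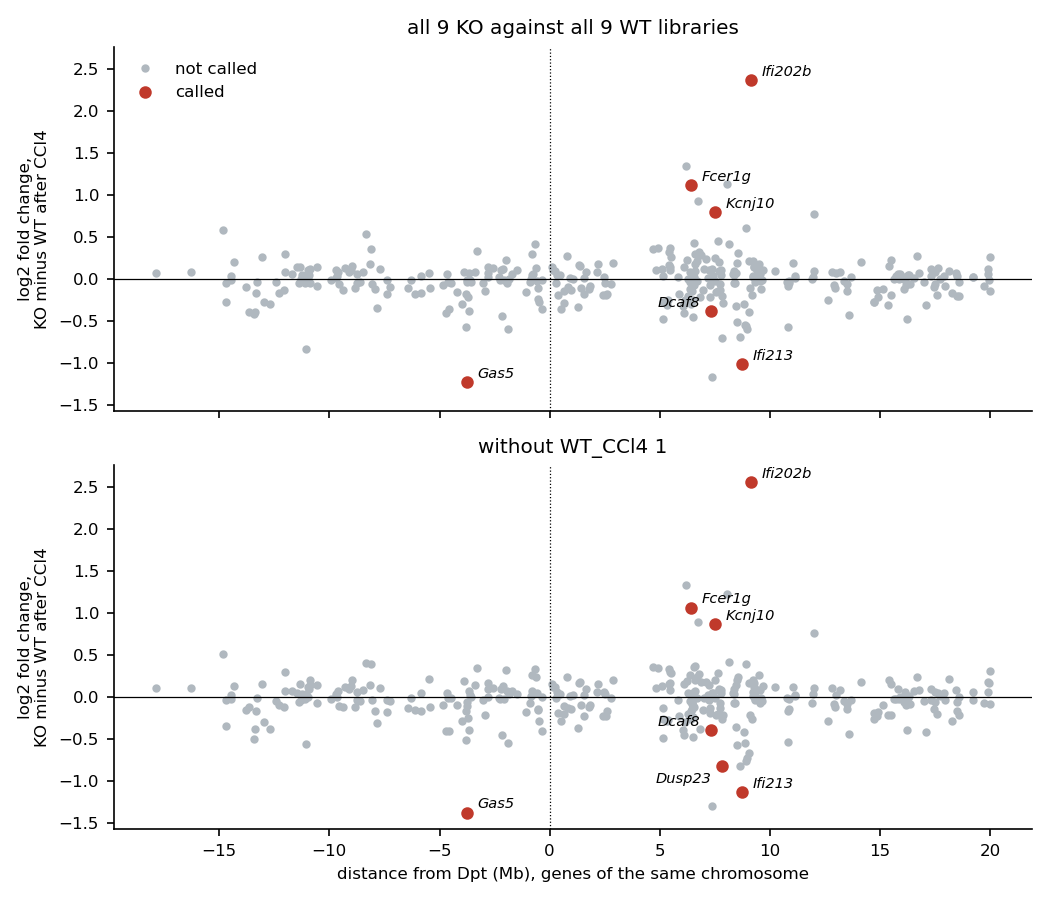
Log2 fold change, KO minus WT after CCl4 (vertical axis), of the genes within 20 Mb of Dpt against distance from Dpt in Mb (horizontal axis), with all libraries above and without the library labelled WT CCl4 1 below. The called genes, in red, lie at -3.76 Mb and between 6.41 and 9.14 Mb, and Dpt itself is left off.

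Ifi213 and Ifi202b both lie in the Ifi200 cluster, with other family members between them, and were called in opposite directions. Their promoters, windows of 300 bases around an annotated start, are shown because these were the only called members of the family. They are from RefSeq (GRCm38.p6, minus strand, chr1:173599223-173599522 for Ifi213 and chr1:173982795-173983094 for Ifi202b). Capitals mark the letters GAAANNGAA, the core of the element bound by interferon regulatory factors, searched on both strands with no other motif.
Ifi213: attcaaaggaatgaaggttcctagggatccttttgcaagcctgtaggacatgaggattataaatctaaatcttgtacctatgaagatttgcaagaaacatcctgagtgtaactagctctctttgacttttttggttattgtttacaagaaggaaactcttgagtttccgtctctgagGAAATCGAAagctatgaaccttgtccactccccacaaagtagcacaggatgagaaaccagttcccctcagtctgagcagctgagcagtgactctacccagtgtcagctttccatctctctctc
Ifi202b: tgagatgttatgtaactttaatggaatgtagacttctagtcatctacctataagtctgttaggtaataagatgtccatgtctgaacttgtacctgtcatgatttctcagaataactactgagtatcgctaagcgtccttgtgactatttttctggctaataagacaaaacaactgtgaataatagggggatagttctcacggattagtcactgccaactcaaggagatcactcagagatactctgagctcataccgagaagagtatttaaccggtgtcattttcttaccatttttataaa
The Ifi213 window held 1 match and the Ifi202b window held 0, while 2812 of 32851 promoter windows of 300 bases (8.56%) held at least 1. A match describes letters only.

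Ifi213 read 2.18 to 3.05 in KO livers, with a median of 2.48, against 2.63 to 4.25 in WT livers, with a median of 3.65. It fell by 1.01 on the log2 scale (SE 0.20, adjusted p = 0.0251), and by 1.13 without the library labelled WT CCl4 1. The KO values and the WT median lie below 3.86, the highest reading of the deleted Dpt gene in KO livers after CCl4. The size of the Ifi213 fall is therefore uncertain. Of 12 measured Ifi200 genes, 4 were higher in KO, 1 was called up and 1 was called down, and the median difference was -0.25. Over all genes, 0.0563% were called. Ifi204 differed by 0.61 and Aim2, which builds an inflammasome on cytosolic DNA, by 0.31, neither passing the test. Members of this family are close copies of each other, so probe sets may share signal and the values of single members are uncertain. The oil livers gave the same directions: Ifi202b differed by 1.55 (adjusted p = 0.0265) and Ifi213 by -0.87 (adjusted p = 0.213).

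Fcer1g, which encodes the signalling chain shared by activating Fc receptors on myeloid cells, read 9.11, 8.78, 10.16, 9.88, 9.67, 9.23, 9.66, 8.87 and 8.43 in KO libraries 1 to 9, against 7.74, 8.31, 8.65, 8.31, 8.37, 8.35, 7.91, 8.00 and 8.06 in WT libraries 1 to 9. Of the 9 KO libraries, 8 were above the highest WT library. It rose by 1.12 (SE 0.21, adjusted p = 0.0248). Kcnj10, an inwardly rectifying potassium channel gene, rose by 0.80 (SE 0.16, adjusted p = 0.0421), reading 4.26 to 6.05 in KO and 4.28 to 5.11 in WT livers. Dcaf8, a substrate receptor of a CUL4 ubiquitin ligase, read 7.13 to 7.67 in KO and 7.52 to 7.99 in WT livers and fell by 0.38 on the log2 scale (SE 0.07, adjusted p = 0.0248).

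Itgax, the gene of CD11c on dendritic cells and some macrophages, had the largest difference among the called genes away from chromosome 1. It read 6.23, 5.74, 7.92, 7.86, 6.53, 6.82, 7.12, 6.42 and 4.91 in KO libraries 1 to 9, against 3.97, 5.69, 5.23, 5.33, 5.72, 5.04, 5.25, 5.20 and 5.09 in WT libraries 1 to 9. All KO libraries but library 9 were above every WT library. The rise was 1.45 (SE 0.29, adjusted p = 0.0414), and the value was 1.30 without the library labelled WT CCl4 1 (adjusted p = 0.0944), the lowest of all. All 22 probe sets were higher in KO without it.

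Zbp1, an interferon-inducible sensor of left-handed nucleic acids, read 6.06 to 7.10 in KO and 5.18 to 6.55 in WT livers and rose by 0.80 (SE 0.15, adjusted p = 0.0248). Gsdmd, whose product forms the membrane pores of pyroptosis, read 6.15 to 6.76 in KO and 5.78 to 6.55 in WT livers and rose by 0.45 (SE 0.09, adjusted p = 0.0251). In each of these, 4 or more KO libraries were above every WT library. Tnfrsf14, a TNF receptor family gene of lymphocytes and myeloid cells, rose by 0.42 (adjusted p = 0.0251), Rab19, a small GTPase gene, by 0.48 (adjusted p = 0.0499), and Nxpe4 by 0.94 (adjusted p = 0.0248). Nxpe4 read 4.20 to 5.86 in KO and 3.67 to 4.92 in WT livers, and the highest WT value was that of WT library 3. Ide, which encodes insulin-degrading enzyme, read 7.01 to 8.38 in KO and 7.99 to 9.70 in WT livers. The lowest KO value was that of KO library 5 and the highest WT value that of WT library 3. Ide was called lower without the library labelled WT CCl4 1 (-0.76, adjusted p = 0.021), not with all libraries (-0.67, adjusted p = 0.0669). With KO library 5, WT library 3 and the libraries labelled WT CCl4 1 and KO oil 10 out, the difference was -0.50 (adjusted p = 0.00275).

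The markers of monocytes and macrophages leaned upward in KO livers. All 21 measured markers were higher in KO, with a median difference of 0.63 where the median over all genes was 0.001, and 2 of the 21 were called, Itgax and Fcer1g. Without the library labelled WT CCl4 1 the count was 1 of 21, without it and the library labelled KO oil 10 it was 4 of 21, which added Fcgr1 and Ccr2, and with KO library 5 and WT library 3 also out it was 6 of 21, which added Adgre1 and Cd68. The background in those settings was 0.0606%, 0.16% and 0.424%, and it was 0.0563% with all libraries. Fcgr1, the high-affinity receptor for immunoglobulin G, read 6.32 to 8.18 in KO and 5.97 to 6.78 in WT livers, a difference of 0.99 (SE 0.21, adjusted p = 0.0584 with all libraries). Cd68, a lysosomal macrophage protein, differed by 0.81 (adjusted p = 0.415), Adgre1, a surface marker of mouse macrophages, by 0.78 (adjusted p = 0.211), and Csf1r, the receptor for the macrophage growth factor, by 0.63 (adjusted p = 0.251). The mean over the list ran from 6.60 to 8.14 in KO and from 6.07 to 7.28 in WT livers, so the groups overlapped, the highest WT value being WT library 3 and the lowest the library labelled WT CCl4 1. In whole-liver RNA, more cells of a type and more RNA per cell cannot be told apart.

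Receptors of phagocytes also leaned upward, with 22 of 23 higher in KO and a median of 0.67. Without the library labelled WT CCl4 1, 21 of 23 were higher, with a median of 0.53. This list is not independent of the macrophage list, as both hold Fcgr1, Fcgr3, Fcgr4, Fcer1g and Tyrobp. Of these, Fcgr3, Fcgr4 and Fcer1g lie within 10 Mb of Dpt. Fcer1g was the only member called with all libraries. Clec4a1 and Clec4a3, C-type lectin receptor genes of myeloid cells, differed by 1.43 (adjusted p = 0.0584) and 1.38 (adjusted p = 0.0669), and both were called when the libraries labelled WT CCl4 1 and KO oil 10 were out. Of the 15 Kupffer cell markers, 14 were higher in KO with a median of 0.32 and 0 called. In that list the complement genes C1qa, C1qb and C1qc differed by 0.77, 0.78 and 0.70 and Folr2 by 0.78 (adjusted p = 0.0733), and Cd5l by 0.68 (adjusted p = 0.363). Clec4f, Timd4, Marco and Vsig4, which mark resident Kupffer cells, differed by 0.36, 0.10, 0.32 and 0.42 (adjusted p at least 0.789). KO library 5 was the lowest KO library in each of these 4, and without it they differed by 0.75, 0.29, 0.60 and 0.74 (adjusted p at least 0.342), while the median of the list was 0.60. WT library 3, the lowest WT library for Clec4f (4.04) and Vsig4 (6.51), stayed in that fit. With both out, and the libraries labelled WT CCl4 1 and KO oil 10 as well, the list median was 0.48. In that setting 4 of the 15 were called, Cd5l, Folr2, C1qb and C1qc, where 0.424% of all genes were. C1qc and Folr2 were called without the libraries labelled WT CCl4 1 and KO oil 10. With all libraries the 14 markers of scar-associated macrophages were all higher in KO with 0 called and a median of 0.39. Without the library labelled WT CCl4 1, 13 of 14 were higher, with a median of 0.31. In the fit with 4 libraries out, 11 of 14 were higher, with a median of 0.20. Ms4a7 was called there (0.74, adjusted p = 0.0417), where 0.424% of all genes were. Trem2, a lipid receptor of these cells, differed by 0.67 with all libraries (adjusted p = 0.421).

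Neutrophil markers had a median of 0.45, with 15 of 16 higher in KO and 0 called. Among them S100a8, an alarmin of neutrophils, differed by 0.87 (adjusted p = 0.224) and Elane, neutrophil elastase, by 0.62 (adjusted p = 0.141). Lymphocyte markers did not lean: the median was 0.05 over 17 T and NK cell genes and 0.03 over 12 B and plasma cell genes, with 0 called in each. Class II antigen presentation and dendritic cell genes had a median of 0.11, with 11 of 16 higher and 0 called. Of 21 chemokine and chemokine receptor genes 18 were higher in KO, with a median of 0.25 and 0 called, and Ccr2, which draws monocytes out of the marrow, differed by 0.60 (adjusted p = 0.299).

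Interferon-stimulated genes were higher in KO in all 21 cases, with a median of 0.35 and 1 called, Zbp1, where 0.0563% of all genes were. The median was 0.33 without the library labelled WT CCl4 1 and 0.23 with 4 libraries out. Irf7, the factor that amplifies type I interferon, differed by 0.54 (adjusted p = 0.154), and Isg15, a ubiquitin-like interferon product, by 0.53 (adjusted p = 0.197). The mean over the list ran from 5.87 to 6.81 in KO and from 5.63 to 6.26 in WT livers. The highest KO value was that of KO library 5, and the other KO libraries lay at or below 6.42. Of 22 genes of innate sensing and inflammasomes, 21 were higher in KO and 1, Gsdmd, was called, with a median of 0.32. The share called over all genes was again 0.0563%. Il1b, the inflammasome cytokine, differed by 0.94 (adjusted p = 0.253), while Nlrp3 differed by 0.08 and Tnf by 0.23.

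**Figure D4:**
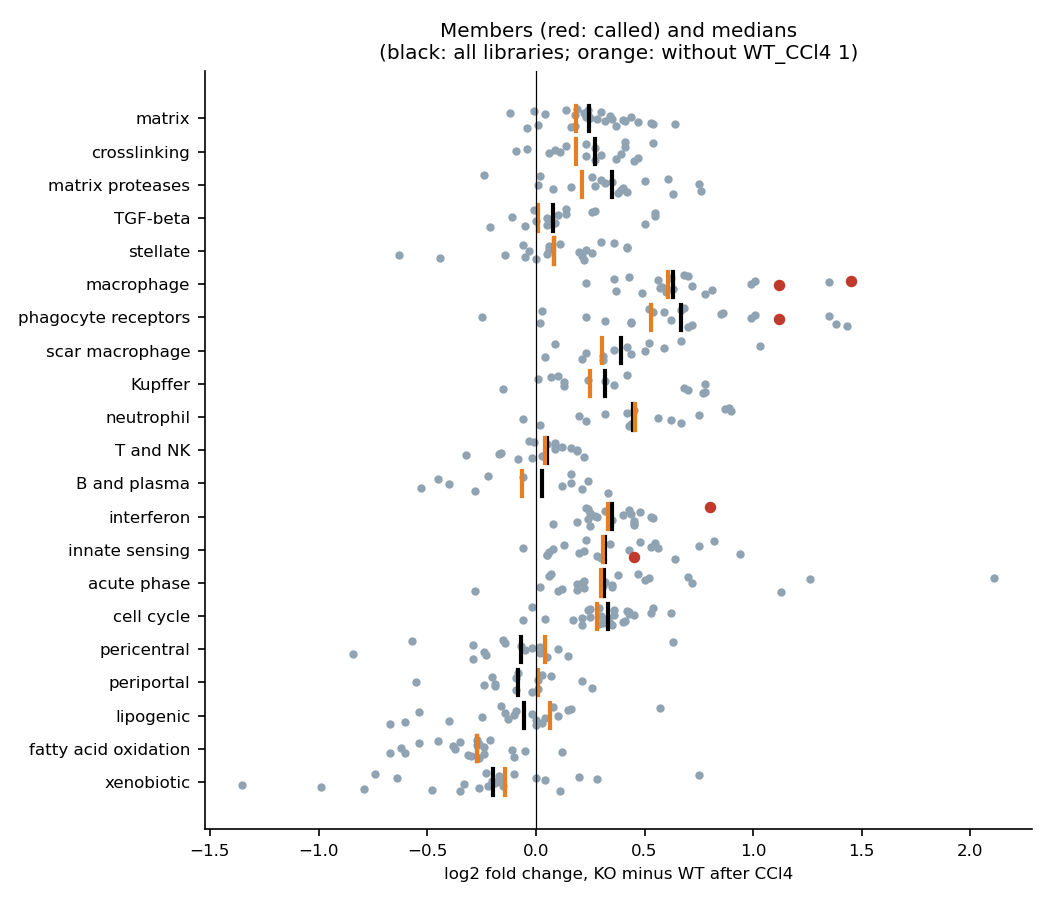
Log2 fold change, KO minus WT after CCl4 (horizontal axis), of the members of the gene lists named on the vertical axis, with called members in red; black ticks are list medians over all libraries and orange ticks those without the library labelled WT CCl4 1. Macrophage and phagocyte receptor genes have medians of 0.63 and 0.67, and the matrix median moves from 0.25 to 0.18 when that library is left out.

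The genes of the scar itself gave no call. Of 28 collagen, laminin and other matrix genes 25 were higher in KO, with a median of 0.25 that was 0.18 without the library labelled WT CCl4 1 and 0.13 with 4 libraries out. Col1a1, the main collagen of scar, read 8.97, 8.85, 9.39, 8.96, 9.90, 9.34, 9.46, 9.06 and 8.70 in KO libraries 1 to 9, against 7.18, 8.62, 8.90, 8.92, 8.74, 8.85, 8.28, 9.02 and 8.33 in WT libraries 1 to 9. The groups overlapped, and the lowest WT value, 7.18, was again the library labelled WT CCl4 1. The difference was 0.64 with a 95% interval of -0.07 to 1.36 (adjusted p = 0.645), and 0.47 with an interval of -0.23 to 1.18 without that library. For comparison, Col1a1 averaged 5.65 in KO and 5.34 in WT livers given oil, and the library labelled KO oil 10 read 9.26 where the other KO oil libraries read 4.78 to 5.88. Col1a2 differed by 0.54 (-0.08 to 1.16), Col3a1 by 0.53 (-0.17 to 1.23) and Acta2, the smooth muscle actin of myofibroblasts, by 0.22 (-0.38 to 0.81), none of them passing the test. Each of the 4 intervals includes no difference. With the libraries labelled WT CCl4 1 and KO oil 10 out, the intervals were 0.16 to 0.79 for Col1a1 and 0.09 to 0.65 for Col1a2, which lie above no difference, and -0.08 to 0.76 for Col3a1 and -0.29 to 0.40 for Acta2. None of the 4 passed the test adjusted over all genes in that setting (adjusted p = 0.254 for Col1a1). There 8 of the 28 matrix genes had an unadjusted p under 0.05, as did 2022 of all 23102 genes. With all libraries 5 of the 28 did, beside 1949 of all genes. Without the library labelled WT CCl4 1 alone 2 of the 28 did, beside 1862 of all genes. A fall of Col1a1 in KO of more than 0.07, or 0.23 without the library labelled WT CCl4 1, was outside its interval.

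Proteins that bind dermatopontin, or that build and remodel collagen, likewise gave no call with all libraries. Among 10 partners of dermatopontin, 9 were higher with a median of 0.21, Tgfb1 by 0.55 (adjusted p = 0.319), Fn1, fibronectin, by 0.24 (adjusted p = 0.397) and Dcn, decorin, by 0.12 (adjusted p = 0.936). Small leucine-rich proteoglycans had a median of -0.12, with 5 of 12 higher. Among collagen-modifying enzymes 16 of 18 were higher with a median of 0.27, including Plod1, a lysyl hydroxylase, by 0.41 (adjusted p = 0.216) and Loxl4, a lysyl oxidase, by 0.39 (adjusted p = 0.357), and Loxl4 was called with 4 libraries out. Matrix proteases and their inhibitors had a median of 0.35 with 18 of 19 higher, and 0.21 without the library labelled WT CCl4 1. Mmp8, the neutrophil collagenase, differed by 0.75 (adjusted p = 0.15) and Mmp13, the interstitial collagenase of rodents, by 0.76 (adjusted p = 0.583). TGF-beta pathway genes and stellate cell genes had medians of 0.08 (14 of 18 higher) and 0.09. Without the library labelled WT CCl4 1 these medians were 0.01 (9 of 18 higher) and 0.08. The median of the collagen-modifying enzymes was then 0.18, with 14 of 18 higher. Among the TGF-beta genes Tgfbi, a matrix protein induced by TGF-beta, differed by 0.55 (adjusted p = 0.211), and among the stellate genes Pdgfrb, the platelet-derived growth factor receptor of stellate cells, by 0.42 (adjusted p = 0.664).

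**Figure D5:**
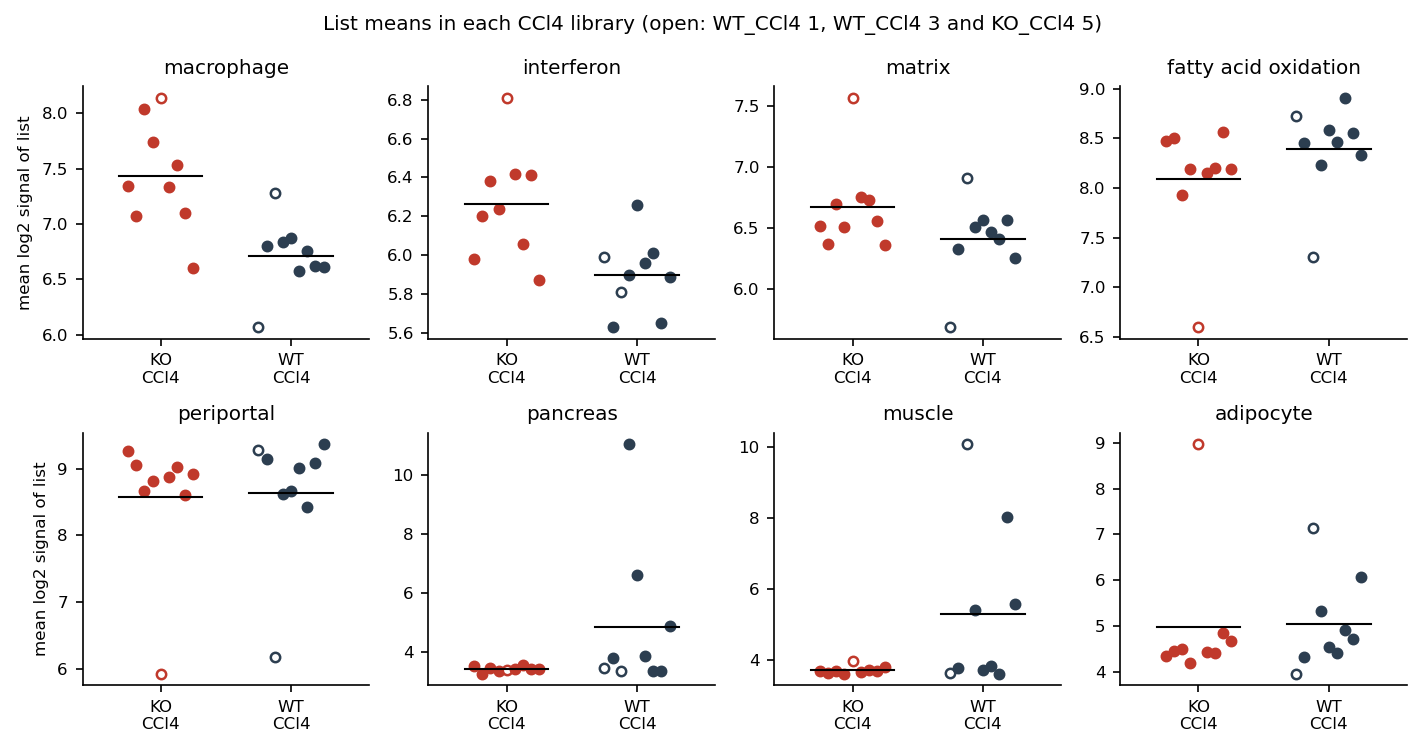
Mean log2 RMA signal (vertical axis, a scale of its own in each panel) over the genes of 8 lists in each CCl4 library, KO left and WT right, with bars at group means; open circles are the library labelled WT CCl4 1, WT library 3 and KO library 5. Macrophage means run from 6.60 to 8.14 in KO and 6.07 to 7.28 in WT, and among these 18 libraries the pancreas and muscle means are high in WT libraries alone.

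Acute-phase and proliferation genes also leaned upward, without a call when all libraries were in the fit. Of 24 acute-phase genes 23 were higher in KO with a median of 0.31. With 4 libraries out 1 of them, Apcs, was called (1.13, adjusted p = 0.000929), where 0.424% of all genes were. Apcs lies at 8.07 Mb from Dpt, and with all libraries its adjusted p was 0.518. Saa2, serum amyloid A, read 7.80 to 11.96 in KO livers, with a median of 10.52, and 4.92 to 11.94 in WT livers, with a median of 8.32, a difference of 2.11 (SE 0.72, adjusted p = 0.317) with wide overlap. Steap4, a metalloreductase gene induced in inflammation, differed by 0.47 (adjusted p = 0.277). Of 27 cell cycle genes 25 were higher in KO with a median of 0.33, among them Bub1b, a spindle checkpoint kinase, by 0.34 (adjusted p = 0.182) and Mcm7, part of the replicative helicase, by 0.43 (adjusted p = 0.392).

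Hepatocyte programmes gave no call. Genes of fatty acid oxidation were lower in KO in 20 of 21 cases, with a median of -0.27 that was also -0.27 without the library labelled WT CCl4 1, and 0 were called. Acadm, the medium-chain acyl-CoA dehydrogenase of mitochondria, read 9.08 to 9.91 in KO and 9.70 to 10.06 in WT livers, a difference of -0.31 (SE 0.09, adjusted p = 0.251), and Hadha, a subunit of the trifunctional protein, differed by -0.27 (adjusted p = 0.363). KO library 5, which was low in hepatocyte markers, had the lowest Acadm value of the 18. Among 24 genes of xenobiotic metabolism 6 were higher and the median was -0.20. Nqo1, an NRF2 target, differed by -0.74 (adjusted p = 0.268), Gsta4, which conjugates lipid peroxidation products, by -0.64 (adjusted p = 0.251) and Cyp2e1, the enzyme that activates CCl4, by 0.02 (95% interval -0.45 to 0.49). Pericentral, periportal, bile acid, lipogenic and cholesterol lists had medians of -0.07, -0.08, -0.09, -0.05 and 0.01, with 0 called in each.

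The same contrast after oil called 8 genes (0.0346%), 2 higher and 6 lower in KO, from libraries not shared with the CCl4 contrast. Gas5 differed by -1.0 after oil (adjusted p = 0.0056), Ifi202b by 1.55, Dusp23 by -1.15 (adjusted p = 0.000427) and Olfr1269 by -1.14 (adjusted p = 0.0056). The corresponding values after CCl4 were -1.23, 2.36, -0.70 and -0.88. Without the 6 oil libraries with Y-linked signal, the oil contrast called 1 gene, Dusp23, while the oil differences were -0.96 for Gas5, 1.71 for Ifi202b, -1.28 for Dusp23 and -1.23 for Olfr1269 (adjusted p = 0.525, 0.337, 0.00802 and 0.184). In that setting, chosen after the data were seen, the CCl4 contrast called 6 genes, with Gas5 and Ifi202b among them. Genes called elsewhere in the genome after CCl4 with all libraries had small values after oil. These were Zbp1 at 0.05, Gsdmd at 0.00, Tnfrsf14 at -0.03, Rab19 at 0.06, Itgax at 0.28 and Nxpe4 at 0.28. Olfr1269 also lies outside the 10 Mb around Dpt, and its oil value of -1.14 was not small. It was called after CCl4 without the library labelled WT CCl4 1 (-1.03), not with all libraries. For Itgax the oil value was 0.07 without the library labelled KO oil 10, which read 5.57 where the other KO oil libraries read 3.31 to 3.78. The interaction of genotype with CCl4 called 0 of 23102 genes by limma, with 1351 at an unadjusted p under 0.05, so no difference between the contrasts passed the test with all libraries. Its value was 1.17 for Itgax (95% interval 0.32 to 2.02, adjusted p = 0.848) and 0.74 for Fcer1g (0.13 to 1.36, adjusted p = 0.848). With the libraries labelled WT CCl4 1 and KO oil 10 out it called 1 gene, Dpt, at -2.52 (adjusted p = 2.79e-05).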

How the data were processed

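Liver RNA of 36 arrays was measured as biotin-labelled total RNA on the Affymetrix MoGene-2_0-st array. The deposited values are log2 signals made by the authors with RMA, per the submitters' processing notes, with no version or settings stated there. A second deposited table, with 36 columns whose names match no single sample, was not used. Of 269479 probe sets, 233753 carry 1 gene symbol in the platform annotation, 5139 several and 30587 none; 2247 symbols were updated through RefSeq (GRCm38.p6). A gene's value is the mean of its probe sets with that symbol only, for 23102 genes with a median of 8 probe sets, and no filter on low values was applied. RMA pulls array distributions together, so a shift shared by most genes cannot be seen; array medians ran from 4.11 to 4.38. No pair of arrays was identical. The number of arrays limits the precision.

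Groups were taken from the titles. limma 3.58.1 (R 4.3.3) fitted 1 mean per group over all 36 arrays, so all groups share the estimate of spread, and p-values of the KO minus WT contrasts were adjusted over all genes by Benjamini-Hochberg; a gene is called at an adjusted p under 0.05. Exact permutation was used for Dpt. The members and gene lists were chosen with earlier results of these data known, so lists are described by counts and medians, with no test. Named genes are Dpt, up to 12 called rises and falls each in the fits with and without the library labelled WT CCl4 1, up to 8 called genes near Dpt, and up to 4 called members of a list, or the 2 with the smallest adjusted p where none was called; provisional, small RNA and receptor cluster genes were left out of the largest changes. Other list members were named after their values were seen, among them Col1a1, Col1a2, Col3a1, Acta2, Dcn, Alb, Cyp2e1, Cd68, Adgre1, Csf1r, Fcgr1, Fcgr4, Clec4a1, Clec4a3, C1qa, C1qb, Clec4f, Timd4, Marco, Vsig4, Cd5l, Gpnmb, Trem2, S100a8, Irf7, Isg15, Il1b, Nlrp3, Tnf, Ifi204 and Aim2. Alternatives left out libraries, changed the summary of probe sets, the normalization, the filter and the variance model, and added the replicate number.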

Additional observations from a re-analysis of the deposited data

Results flagged for a closer look

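Values set far apart from the rest of their group of 9 were looked for in 48 groups of values (a gene or list mean in KO or WT livers after CCl4), and 14 were found. Chance flags about 1 in 20 groups taken singly. The groups hold the same 18 libraries, so the flags are not independent and their count cannot be set against that rate. The low Dpt of the library labelled WT CCl4 1 was known beforehand. The library labelled WT CCl4 1 stood apart as the lowest WT value of Dpt (3.18) and of Itgax (3.97), and as the highest WT value of Ifi202b (3.97). KO library 5 stood apart in 6 measures: its adipocyte mean was 8.97, its mesothelial mean 7.29, its matrix mean 7.57 and its muscle mean 3.98, each the highest of the KO livers, while its periportal hepatocyte mean of 5.93 and its Ide value of 7.01 were the lowest. WT library 3 stood apart in 3 measures, with the highest WT mesothelial mean (6.91), the highest WT value of Nxpe4 (4.92) and the lowest WT periportal mean (6.18). WT library 4 had the highest pancreas mean (11.04), and KO library 9 the lowest KO value of Gas5 (4.80). No cause was tested for any of them.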

How the results depend on the processing

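The direction and the call of Dpt held under all 36 alternatives, and Gas5 kept both under 35, its difference being 0.17 (adjusted p = 0.821) with the highest probe set of each gene. Ifi202b kept its direction under all 36 and its call under 35. The other 10 genes called with all libraries kept their direction wherever they were tested and lost the call under 13 to 23 alternatives, most for Rab19 (23). The count of 13 called genes was less stable than these genes. It was 37 without the libraries labelled WT CCl4 1 and KO oil 10, 98 with WT library 3 and KO library 5 also out, 100 without the library labelled KO oil 10 alone, 99 without 7 libraries with markers of other tissues, which leaves the library labelled WT CCl4 1 in, and 9 without those and that library. It was 268 with array weights (230 higher and 38 lower in KO), 21 with arrays centred on their medians, 20 after quantile normalization, 7 with the median of probe sets, 7 with the highest probe set, 6 without the 6 oil libraries with Y-linked signal, 3 on the 18 CCl4 arrays alone and 4 on those without the library labelled WT CCl4 1. Leaving out 1 library at a time gave 3 to 86: 86 without KO library 9, 32 without KO library 8, 30 without WT library 3, 8 without WT library 5, 7 without KO library 6, 6 without KO library 1 or 7, 4 without WT library 6 or 8, and 3 without KO library 3 or 4 or WT library 7 or 9. The oil count of 8 was 5 with the median and 5 with the highest probe set, and 1 without the 6 oil libraries with Y-linked signal. The count of called genes near Dpt, 6 within 10 Mb (2.53%, against 0.0262% elsewhere), was 1 within 5 Mb (1.12%, against 0.0478%). Within 10 Mb it was 7 without the libraries labelled WT CCl4 1 and KO oil 10 (2.95%, against 0.127% elsewhere). With 4 libraries out it was 12 (5.06%, against 0.372% elsewhere), so the share elsewhere rose as well. Same-numbered KO and WT libraries correlated by -0.282 to 0.324, so the numbers were not taken to pair them; with the replicate number as a block on the 18 CCl4 arrays 9 genes were called, 3 of them among the 13. Of the list medians 2 moved by more than the spread and 1402 did not over all alternatives, the Kupffer median being 0.60 without KO library 5 and the interferon median 0.55 with the highest probe set. Settings that left out 4 libraries together, the library labelled KO oil 10 alone, the 6 oil libraries, or the library labelled WT CCl4 1 from the 18 arrays were added after the data were seen; the cause was not tested for any of these shifts.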

Other observations

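Lists of other liver cells and functions gave no call with all libraries. Of 13 endothelial genes 11 were higher in KO than in WT livers with a median difference of 0.12, and 13 genes of sinusoidal endothelium had a median of -0.08. Lyve1, a hyaluronan receptor of sinusoidal endothelium, averaged 7.27 in KO and 7.85 in WT livers, a difference of -0.58 (SE 0.24, adjusted p = 0.471). Bile duct genes had a median of 0.06 over 14 genes, with Krt23, a keratin of injured bile duct cells, at -0.69 (adjusted p = 0.282) and Spp1, osteopontin, at 0.52 (adjusted p = 0.629). Krt23 read 5.93 in WT library 3, against 3.02 to 3.76 in the other WT libraries and 2.76 to 3.66 in KO livers. Apart from WT library 3, these values lie below 3.86, the highest reading of the deleted Dpt gene in KO livers after CCl4. Growth hormone-dependent genes had a median of -0.04 over 15 genes after CCl4, and -0.41 after oil with 0 of 15 higher in KO. The oil median was -0.16 with 1 of 15 higher when the libraries labelled WT CCl4 1 and KO oil 10 were out. Many of these genes are sex-dependent in mouse liver, and the list mean was 8.71 to 9.03 in the 6 oil libraries with Y-linked signal, against 5.05 to 7.94 in the other oil libraries; without those 6 the oil median was -0.40 with 1 of 15 higher. Stress response genes had a median of -0.07 over 21 genes, with Chac1, a glutathione-degrading enzyme gene induced by amino acid stress, at -0.39 (adjusted p = 0.418). Markers of exocrine pancreas and skeletal muscle were lower in KO livers for 13 of 13 and 10 of 10 genes, with medians of -1.36 and -1.57 and 0 called, and among the CCl4 libraries the means over these lists were high in some WT libraries alone. The library labelled KO oil 10 had a muscle mean of 6.22 and a pancreas mean of 4.41.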
